A study of Mus musculus with 8 samples.

Results

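The circadian clock genes described here are Arntl, Clock, Per1, Per2, Per3, Nr1d1, Nr1d2, Dbp, Tef and Bhlhe40. They were taken from 8 single-colour expression arrays of mouse ankle joint as every probe set annotated to 1 of these genes and to no other gene, which gave 25 of the 45101 probe sets in the table and 10 of the 18193 genes with such a probe set. All mice were 5 months old. The wild-type group had 2 arrays. The hTNF group had 3 arrays from mice that carry a human TNFa transgene and have normal sphingosine kinase 1, and the third group had 3 arrays from mice that carry the transgene and are labelled functionally null for sphingosine kinase 1 (Sphk1). The transgene is therefore shared by all 6 arrays outside the wild-type group, and no wild-type array with the Sphk1 null allele was analysed here. The labels name neither the promoter of the transgene nor the kind of null allele, and they give no hour of dissection and no light schedule. The labels do not tell whether replicate arrays stem from different litters or RNA preparations. The p-values therefore cover the array-to-array spread alone. Sex-linked log2 signal differed among replicates. By replicate number, Xist was 7.45 and 13.09 in wild type and 13.05, 7.29 and 13.16 in hTNF. The Y-linked Eif2s3y was 9.14, 3.46 and 3.46 in the arrays labelled Sphk1 null. Replicates were thus not all repeats of a single RNA sample. How much of the spread is technical was not tested.

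The clock is a feedback loop of transcription factors that runs in nearly every cell. ARNTL (BMAL1) pairs with CLOCK or NPAS2 and binds E-box sequences to switch on the Per and Cry genes, whose proteins return to the nucleus and inhibit that pair. A second loop is made by NR1D1 and NR1D2 (REV-ERB alpha and beta), which repress Arntl through ROR response elements that the ROR receptors activate. DBP, TEF and HLF are PAR bZIP factors that pass the rhythm on through D-boxes, where NFIL3 represses, and BHLHE40 (DEC1) is a further E-box repressor. Most of these RNAs rise and fall over the day in peripheral tissues, so a level belongs to the hour at which the tissue was taken.

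Promoter sequence of the mouse reference (RefSeq, build GRCm38.p6) was searched for the letters of these elements on both strands, and the windows of the 4 members that hold a match, Per3, Tef, Per1 and Arntl, are shown. They were chosen by the match and not by the expression values. The windows ran from 250 bases before to 50 bases after an annotated start, and 8 of the 10 members (all but Per2 and Bhlhe40) matched an entry, 13 windows in all. The E-box was searched as CACGTG, the D-box as TTATGTAA, the ROR response element as TAGGTCA or TGGGTCA and the cyclic AMP response half-site as TGACG. No searched motif is contained in another. In the lines below the bases before each start are printed 5′ to 3′ on the strand of the gene, with matches in capitals. The coordinates are chr4:151044666-151044915 on the minus strand for Per3, chr15:81802423-81802672 and chr15:81811164-81811413 on the plus strand for Tef starts 1 and 2, and chr11:69098699-69098948 and chr11:69099902-69100151 on the plus strand for Per1 starts 1 and 2. The last line holds the 24 bases around the match of Arntl at chr7:113207532-113207555 on the plus strand, which lies after a start.
Per3: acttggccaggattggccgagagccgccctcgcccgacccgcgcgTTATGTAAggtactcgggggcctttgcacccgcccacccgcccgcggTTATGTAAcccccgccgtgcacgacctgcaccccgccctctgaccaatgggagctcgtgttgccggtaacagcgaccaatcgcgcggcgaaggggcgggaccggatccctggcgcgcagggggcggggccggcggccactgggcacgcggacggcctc
Tef start 1: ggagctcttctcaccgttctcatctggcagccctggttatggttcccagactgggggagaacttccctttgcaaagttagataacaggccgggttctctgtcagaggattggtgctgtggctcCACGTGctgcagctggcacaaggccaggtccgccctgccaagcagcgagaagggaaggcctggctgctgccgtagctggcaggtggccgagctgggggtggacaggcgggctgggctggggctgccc
Tef start 2: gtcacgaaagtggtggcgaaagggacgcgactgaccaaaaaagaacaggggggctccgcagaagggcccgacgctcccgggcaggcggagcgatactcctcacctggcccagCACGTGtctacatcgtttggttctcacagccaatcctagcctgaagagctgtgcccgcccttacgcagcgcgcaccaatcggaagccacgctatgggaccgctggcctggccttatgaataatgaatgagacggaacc
Per1 start 1: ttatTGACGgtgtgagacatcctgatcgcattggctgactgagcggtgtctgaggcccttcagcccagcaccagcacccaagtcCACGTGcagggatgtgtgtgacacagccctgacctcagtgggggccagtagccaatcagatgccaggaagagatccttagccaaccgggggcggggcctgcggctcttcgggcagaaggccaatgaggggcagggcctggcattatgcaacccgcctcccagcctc
Per1 start 2: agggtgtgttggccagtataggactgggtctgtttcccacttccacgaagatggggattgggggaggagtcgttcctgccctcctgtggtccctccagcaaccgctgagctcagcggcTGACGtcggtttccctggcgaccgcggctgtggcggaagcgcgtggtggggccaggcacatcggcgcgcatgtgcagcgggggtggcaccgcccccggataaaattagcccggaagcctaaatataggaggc
Arntl: ggcagaaagTAGGTCAgggacgga
The capitals in Per3 are 2 D-boxes whose first bases lie at -205 and -158 from the start. A D-box occurred in 0.938% of the 32851 windows of all genes. Those in Tef are E-boxes, at -127 from start 1 and -138 from start 2, and an E-box occurred in 7.15% of all windows. Per1 start 1 has an E-box at -166 and a cyclic AMP half-site at -246, and Per1 start 2 has a half-site at -132, a motif found in 20.8% of windows. The Arntl match is a ROR response element, found in 6.45% of windows, with its first base at 31 past the second start listed for the gene. The windows of Clock, Dbp, Nr1d1 and Nr1d2 held none of these letters, although Nr1d1 is among the members that fell, and this says only that the letters are not in those windows. A match is a description of sequence, not a bound site.

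Levels are deposited log2 values, differences are log2 differences ± SE from 1 limma fit to all 8 arrays, and p-values were adjusted by the Benjamini-Hochberg method across the 24115 probe sets bright enough to test. A gene was called, and is said to have risen or fallen, at an adjusted p under 0.05. Per-array values are given in the order of the replicate numbers. Of the 25 clock probe sets 20 were tested, so that all 10 members had at least 1, and a member stands by its brightest. Arrays of 1 group correlated at 0.962 to 0.985, and wild-type with transgenic arrays at 0.862 to 0.916. The signal of the tested probe set of Sphk1, the check on the labels, was 7.25 and 7.16 in wild type, 8.63, 8.65 and 8.28 in hTNF and 10.22, 9.94 and 10 in the arrays labelled Sphk1 null. It was highest in the arrays labelled null, 1.53 ± 0.13 above hTNF (adjusted p = 0.0164), so the label is used below as a label only; a probe set outside the altered part of the gene would not report on its function. Of 18 alternative analyses of that difference, 7 passed the threshold. Another Sphk1 probe set, too dim to test, did not show this order. Its mean was 6.26 in wild type, 6.59 in hTNF and 6.47 in the arrays labelled Sphk1 null. Xist and Y-linked signal occurred together on 3 arrays (below, the 3 mixed-signal arrays), wild-type replicate 2, hTNF replicate 1 and Sphk1-null replicate 1. In that order Xist was 13.09, 13.05 and 11.19, and the Y-linked Eif2s3y was 6.91, 6.6 and 9.14. Kdm5d, also Y-linked, was 4.24, 4.27 and 7.22, against 4.21 on Sphk1-null replicate 2. The Y-linked signal of the first 2 arrays was thus weak and not seen in Kdm5d. Wild-type replicate 1 and hTNF replicate 2 had low Xist (7.45 and 7.29) and high signal of the Y-linked Eif2s3y (8.86 and 8.75). On hTNF replicate 3 and Sphk1-null replicates 2 and 3, Xist was high (13.16, 12.89 and 13.1) and Eif2s3y low (3.81, 3.46 and 3.46). Sex-linked signal was thus not balanced over the groups, and its part in the differences was not tested. The mean of 10 skin and keratinocyte genes was 8.07 and 6.92 in wild type, 11.52, 6.30 and 8.66 in hTNF, and 10.08, 6.50 and 9.23 in the arrays labelled Sphk1 null. The mean of 10 neutrophil and granulocyte precursor genes was 7.99 in wild-type replicate 1 and 11 in wild-type replicate 2, and 9.61 to 11.34 on the transgenic arrays.

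In the hTNF joint 4 of the 10 clock genes, Per3, Tef, Nr1d1 and Arntl, fell against wild type, by 0.47 to 0.83 log2, 6 did not pass the test and none rose. Over all 12362 tested genes 36.1% were called in this comparison, 19.6% as lower and 16.5% as higher, so that 4 called of 10 is close to the share among all genes. The median difference of the members was -0.38, against -0.02 for all genes. In 8 members the wild-type and hTNF arrays did not overlap, which was so for 63.7% of all genes. Without wild-type replicate 1 the count of called members went from 4 to 2 (Per3 and Tef), and that of probe sets in the whole table from 7965 to 4695; the part of the low neutrophil signal of that array was not tested.

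**Figure D1:**
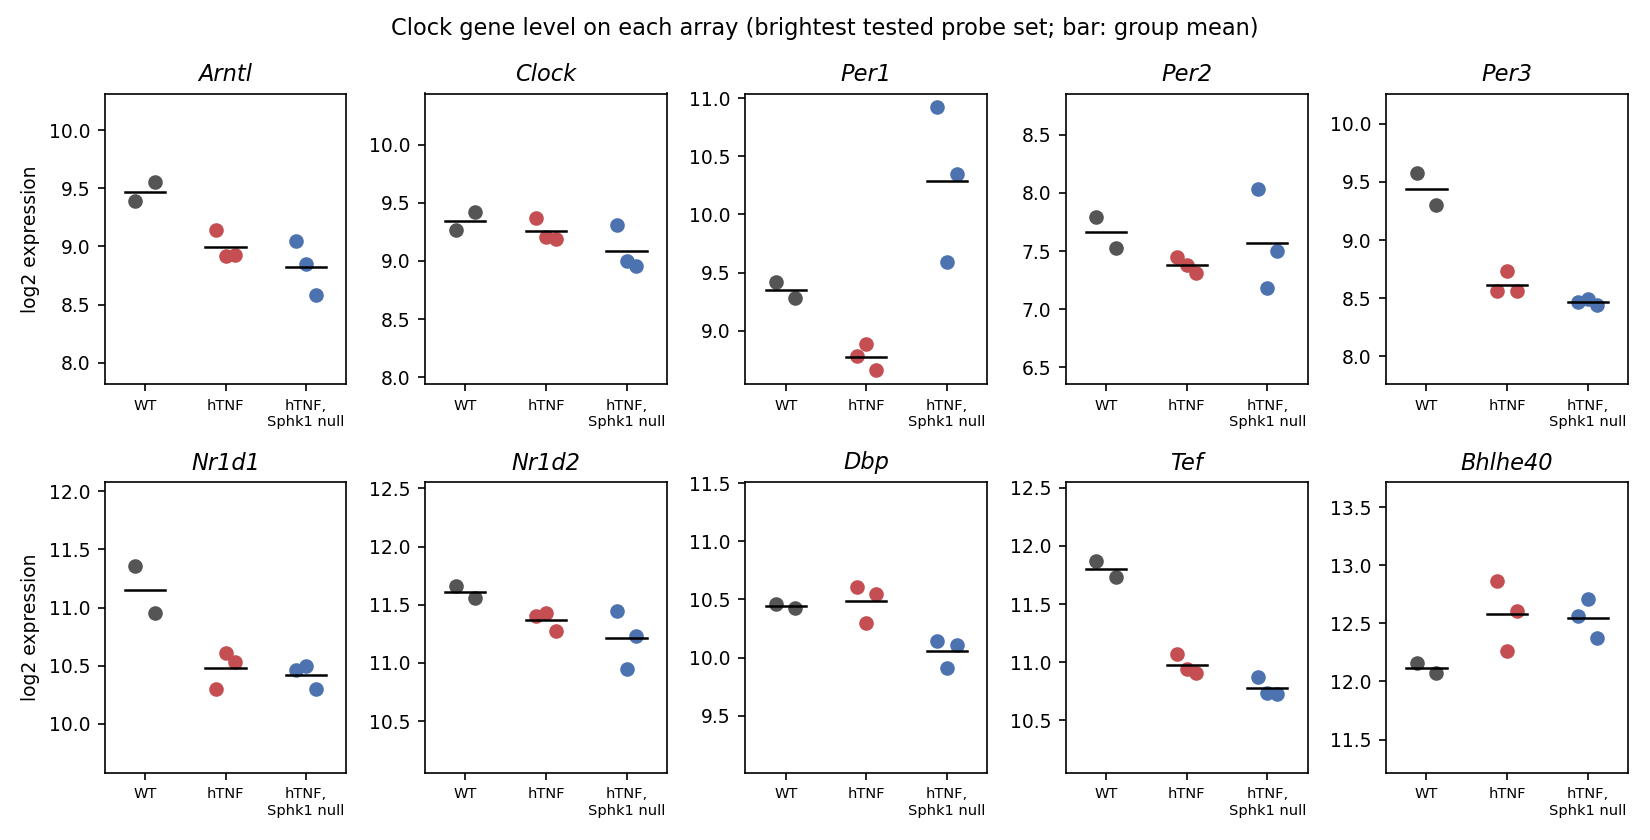
Log2 level of each clock gene (brightest tested probe set, 1 panel per gene) on each of the 8 arrays, by group; points are arrays and bars are group means. Tef and Per3 sit lower on all 6 transgenic arrays than on both wild-type arrays, while Per1 is highest on the 3 arrays labelled Sphk1 null, at 9.59 to 10.92.

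Among the activators, Arntl, the partner without which the loop does not run, stood at 9.39 and 9.55 in wild type and at 9.14, 8.92 and 8.93 in hTNF. All 3 hTNF arrays lay below both wild-type arrays. Arntl fell by 0.47 ± 0.15 log2 (1.39-fold lower, adjusted p = 0.0386). That call was lost in 7 of 18 alternatives: without wild-type replicate 1 or 2 (adjusted p = 0.0917 and 0.198), without hTNF replicate 2 or 3 (0.109 and 0.111), without the 3 mixed-signal arrays (0.0584), with no filter on dim probe sets (0.06) and with the replicate number as a block (0.101). Clock, the histone acetyltransferase partner of ARNTL, had 9.27 and 9.42 in wild type and 9.37, 9.21 and 9.19 in hTNF. These groups overlapped, and the difference of -0.09 ± 0.13 (95% interval -0.39 to 0.22, adjusted p = 0.675) did not pass. Npas2, which can replace CLOCK, differed by 0.28 ± 0.24 (adjusted p = 0.41).

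The period genes encode repressors of the loop. All 3 were lower on every hTNF array than on either wild-type array, and 1 of them, Per3, passed the test; differences between the 3 genes were not tested. Per3 had 9.58 and 9.30 in wild type and 8.56, 8.73 and 8.56 in hTNF. The lowest wild-type array lay 0.57 above the highest hTNF array, and Per3 fell by 0.82 ± 0.12 log2 (1.77-fold lower, adjusted p = 0.000922), past the threshold in all 18 alternatives run. Per1, which signalling through cyclic AMP and glucocorticoids also induces, had 9.42 and 9.28 in wild type and 8.78, 8.89 and 8.66 in hTNF. All hTNF arrays were below wild type, but the difference of -0.57 ± 0.30 (adjusted p = 0.186) did not pass; it passed in 3 of 18 alternatives, fitted on only the 2 groups compared (adjusted p = 0.00805), with array weights (0.0387) and without Sphk1-null replicate 2 (0.0309). Per2 had 7.79 and 7.53 in wild type and 7.45, 7.38 and 7.31 in hTNF, again without overlap and without a call (-0.28 ± 0.22, adjusted p = 0.38).

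Both cryptochrome genes, whose products are the partners of the PER proteins, fell. Cry2 had 9.88 and 9.70 in wild type and 8.90, 8.77 and 8.61 in hTNF. It fell by 1.03 ± 0.19 log2 (adjusted p = 0.00264), with no overlap. Cry1 had 7.27 and 7.49 in wild type and 6.90, 6.44 and 6.79 in hTNF, and fell by 0.67 ± 0.18 (adjusted p = 0.0171). Cry1 exceeded the brightness filter (6.87) on both wild-type arrays and on 1 of the 6 transgenic arrays, so it was tested only because it was high in wild type, and its lower values lie in the dim range. The call of Cry1 was lost without wild-type replicate 2 (adjusted p = 0.12), without hTNF replicate 2 (0.0551) and without the 3 mixed-signal arrays (0.0657).

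Of the repressors of Arntl, Nr1d1 had 11.36 and 10.95 in wild type and 10.30, 10.61 and 10.53 in hTNF. Every hTNF array was below both wild-type arrays. Nr1d1 fell by 0.67 ± 0.15 (1.6-fold lower, adjusted p = 0.00653), and without wild-type replicate 1 the difference was -0.47 (adjusted p = 0.0739). Its paralogue Nr1d2 had 11.66 and 11.56 in wild type and 11.40, 11.43 and 11.27 in hTNF, a difference of -0.24 ± 0.14 (adjusted p = 0.216) that did not pass although the arrays did not overlap. Rora, the activating receptor at the same element, differed by -0.30 ± 0.22 (adjusted p = 0.336). Thra, the thyroid hormone receptor gene that overlaps Nr1d1, fell by 0.76 ± 0.14 (adjusted p = 0.00277). The other tested genes that overlap a member were not called. Sphk2, which overlaps Dbp, differed by 0.4 ± 0.14 (adjusted p = 0.0587), and 0610040F04Rik, which overlaps Bhlhe40, by -0.09 ± 0.16 (adjusted p = 0.733).

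The PAR bZIP factors split. Tef had 11.87 and 11.73 in wild type and 11.07, 10.94 and 10.91 in hTNF, with 0.66 between the nearest arrays. It fell by 0.83 ± 0.10 log2 (1.77-fold lower, adjusted p = 0.000305), past the threshold in all 18 alternatives. Dbp had 10.46 and 10.43 in wild type and 10.61, 10.30 and 10.55 in hTNF. The groups overlapped, with a difference of 0.04 ± 0.12 (adjusted p = 0.843) whose sign turned in 3 alternatives. Hlf, the third factor of the family, had 9.35 and 8.73 in wild type and 8.51, 7.72 and 7.90 in hTNF and fell by 1.00 ± 0.25 (adjusted p = 0.0124); without wild-type replicate 1 it differed by -0.69 (adjusted p = 0.13). Nfil3, the repressor at the same D-boxes, differed by -0.14 ± 0.20 (adjusted p = 0.666).

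Bhlhe40 was the member that stood highest above wild type in hTNF. It had 12.16 and 12.07 in wild type and 12.86, 12.26 and 12.61 in hTNF, with no overlap. The difference of 0.46 ± 0.16 (adjusted p = 0.0551) missed the threshold, and it passed after quantile normalization (0.0499) and without hTNF replicate 2 (0.62, adjusted p = 0.00906). Ciart, another repressor of the ARNTL and CLOCK pair, differed by -0.39 ± 0.15 (adjusted p = 0.0714).

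**Figure D2:**
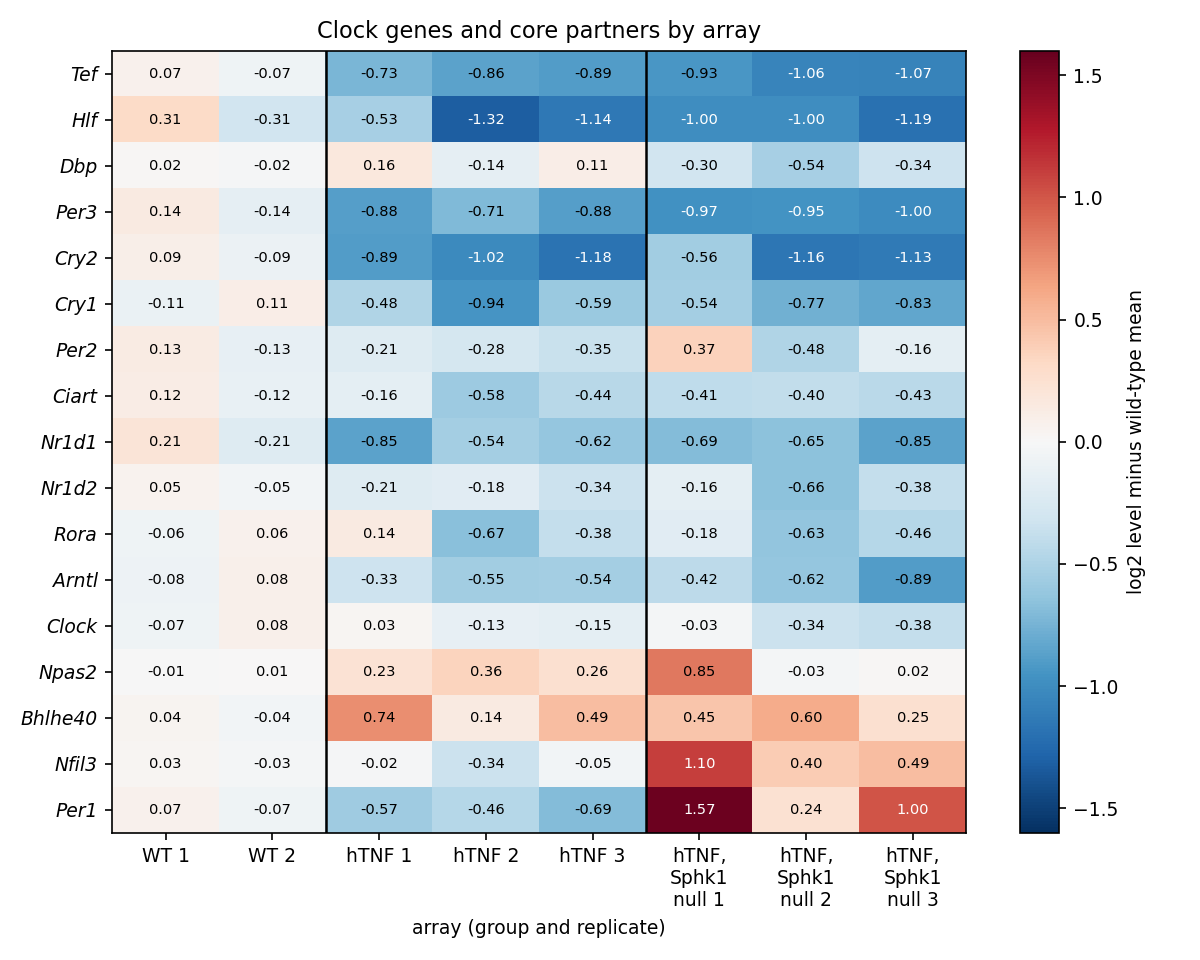
Log2 level of the 10 clock genes and 7 tested core partners (rows) on each of the 8 arrays (columns) minus the mean of the 2 wild-type arrays, printed in each cell and coloured from below (blue) to above (red). All 6 transgenic arrays are below the wild-type mean for Arntl, Nr1d1, Nr1d2, Per3 and Tef and above it for Bhlhe40.

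Relative to the wild-type mean, all 6 transgenic arrays were lower for Arntl, Nr1d1, Nr1d2, Per3 and Tef and none was lower for Bhlhe40. Clock and Per2 were lower on 5, Dbp on 4 and Per1 on 3. The share of all genes with all 6 arrays on 1 side of that mean was not counted. Groups that did not overlap with wild type made up 63.7% of all genes for hTNF and 60.8% for the arrays labelled Sphk1 null. Of the 7 core partners tested, 3 fell and none rose in hTNF, against 36.1% of all genes called and 19.6% called as lower, with a median of -0.39; Rorb and Bhlhe41 were too dim to test. Of 12 clock modifiers, kinases, ligases and cofactors that act on the loop, 10 were tested. By brightest probe set 3 fell and none rose, with a median of -0.21, to be read against the same shares of all genes. The 3 were Ppargc1a, the coactivator PGC-1 alpha (-1.72 ± 0.17, adjusted p = 0.00013), which exceeded the brightness filter on the 2 wild-type arrays only and so was tested only because it was high there, Cipc, a CLOCK-interacting repressor (-0.57 ± 0.18, adjusted p = 0.0333), and Gsk3b, a kinase of clock proteins (-0.45 ± 0.13, adjusted p = 0.0253). Cipc and Gsk3b lost the call without either wild-type array or without hTNF replicate 2 or 3 (adjusted p from 0.0837 to 0.141), Cipc also without Sphk1-null replicate 3 (0.0538) and Gsk3b with the replicate number as a block (0.0543). The dimmer tested probe sets of Gsk3b went both ways by group mean. In wild type and hTNF, some had 7.5 and 9, 7.81 and 8.3, and 8.03 and 8.51. Others had 7.47 and 7.06, and 8.23 and 8.05. A dimmer probe set of the modifier Csnk1e rose in hTNF (0.5 ± 0.15, adjusted p = 0.0322). Its brightest set was on the lower side without a call (-0.29 ± 0.17, adjusted p = 0.217). Among 6 rhythmic output genes 1 fell and none rose, a smaller share than among all genes. This was Usp2, a deubiquitinase, with 10.78 and 10.38 in wild type and 9.37, 9.28 and 9.12 in hTNF (-1.32 ± 0.21, adjusted p = 0.00138).

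Several lists of cell type markers moved in the same comparison, in which 19.6% of all genes were called as lower and 16.5% as higher. Of 15 skeletal muscle genes 14 fell, with a mean level of 14.05 to 14.09 in wild type, 12.75 to 13.09 in hTNF and, in the arrays labelled Sphk1 null, 12.47 to 12.93. The 8 tested adipocyte genes fell, from 11.41 to 11.43 in wild type to 9.19 to 9.36 in hTNF; 2 of them, Lep and Pck1, exceeded the brightness filter on wild-type arrays only. Of 10 macrophage and monocyte genes 9 rose, from 9.76 to 9.87 up to 11.42 to 11.81 (1 of the 10, Marco, exceeded the filter on transgenic arrays only), and all 6 endothelial genes fell. Cartilage genes, which mark the labelled tissue, had a mean level of 10.67 and 10.33 in wild type and 9.30 to 9.62 in hTNF, and 6 of the 8 tested fell. Of 5 tested osteoblast genes 1 rose and none fell, with a median difference of -0.04. In whole joints, fewer cells of a type and less RNA per cell cannot be told apart, and the part of cell makeup in the clock differences was not tested. The 3′ minus 5′ signal of the actin control, a measure of RNA integrity, was 0.37 and 0.45 in wild type, 0.60, 0.47 and 0.57 in hTNF and 0.53, 0.74 and 0.67 in the arrays labelled Sphk1 null. That of the Gapdh control was 0.12 and 0.25 in wild type, 0.22, 0.19 and 0.23 in hTNF and 0.26, 0.32 and 0.35 in the arrays labelled Sphk1 null. By Gapdh the arrays labelled Sphk1 null lay above all others. The part of RNA integrity in any of the 3 comparisons was not tested.

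Whether the arrays labelled Sphk1 null differ from hTNF was the second comparison, and no clock gene was called in it by limma. Of all genes 0.0162% were called, 2 genes. At an unadjusted p under 0.05 there were 2 clock genes, Per1 and Dbp, in opposite directions, against 6.27% of all genes. The groups did not overlap for 4 of the 10, higher for Per1 and lower for Dbp, Per3 and Tef, against 10% of all genes; for Tef and Per3 the gap was 0.04 and 0.07. The median difference of the members was -0.15, and of all genes -0.02.

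**Figure D3:**
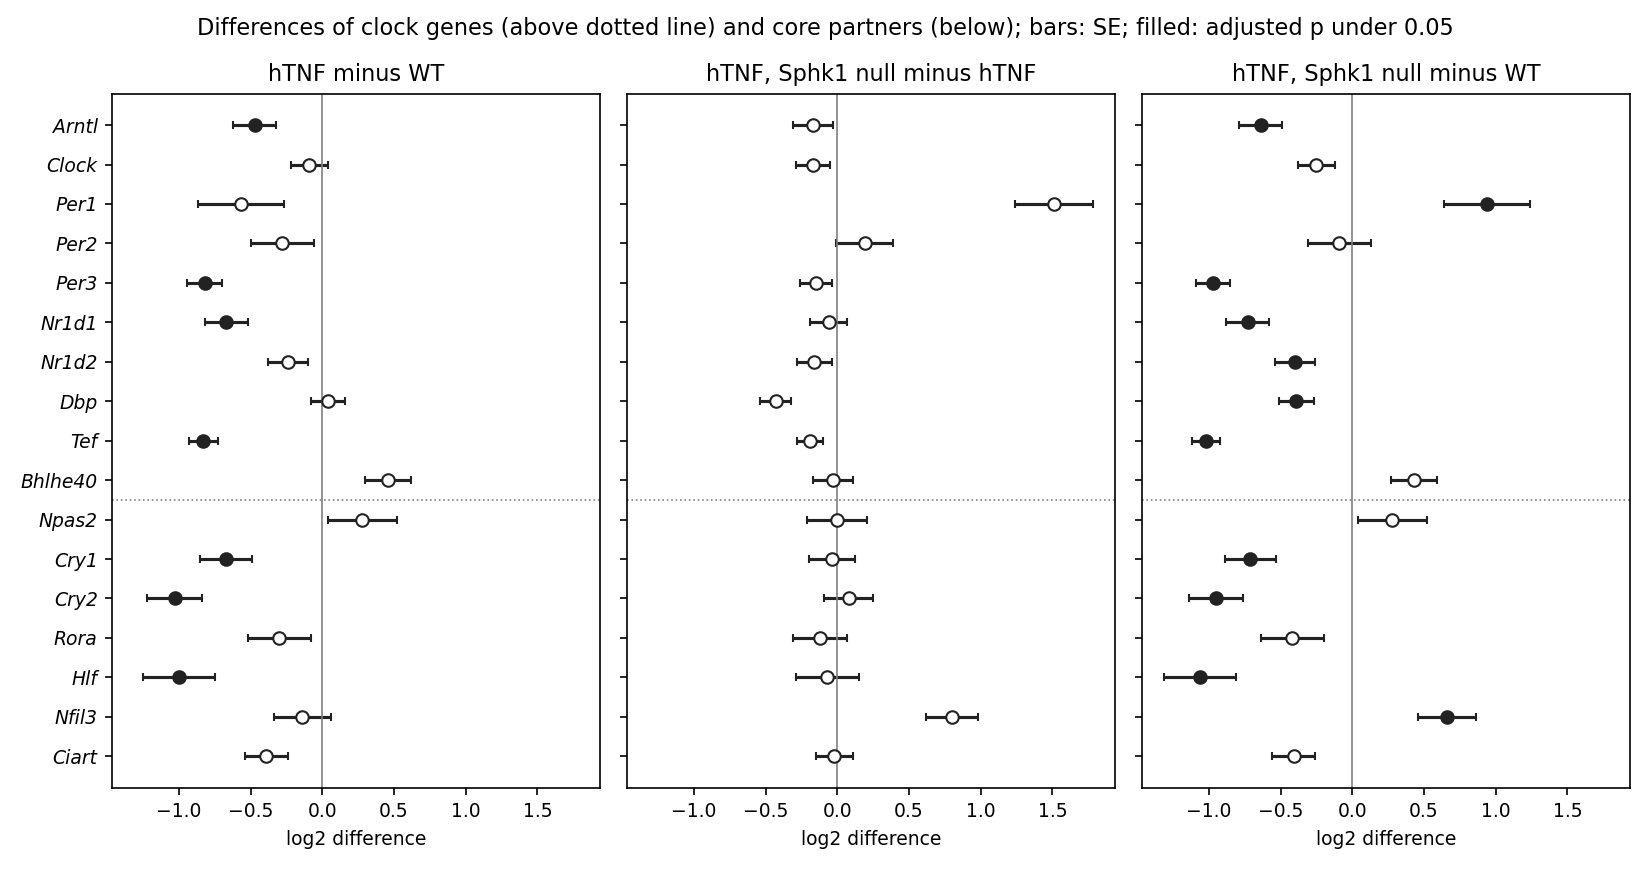
Log2 differences of the 10 clock genes (above the dotted line) and 7 core partners (below it), by brightest tested probe set, for the 3 comparisons, with bars for the SE and filled symbols where the adjusted p is under 0.05. In the comparison of the arrays labelled Sphk1 null with hTNF no symbol is filled, and Per1 (1.51) lies farthest from 0.

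Per1 stood at 8.78, 8.89 and 8.66 in hTNF and at 10.92, 9.59 and 10.35 in the arrays labelled Sphk1 null. The lowest of these was above every hTNF and wild-type array, and they differed among themselves by more than 1 log2 unit. The difference was 1.51 ± 0.27 (2.85-fold, 95% interval 0.90 to 2.12), with an unadjusted p of 0.000322 in the limma fit, rank 22 of 24115, and an adjusted p of 0.348, so it did not pass. The fitted difference ranged from 1.19 to 1.86 over 18 alternatives, with adjusted p from 0.0328 to 0.999, and passed in 1, without Sphk1-null replicate 2. Immediate early genes, which cell signalling and stress induce as they do Per1, were higher in 9 of 10 without a call, against 5522 of 12362 genes. Their mean level was 10.16, 10.14 and 10.57 in hTNF and 10.90, 10.75 and 10.54 in the arrays labelled Sphk1 null, which overlap. Of these 10 genes 5 had an unadjusted limma p under 0.05, against 6.27% of all genes. In 3 the groups did not overlap, against 10% of all genes. Of 8 glucocorticoid response genes none was called, with differences from -0.40 to 0.55 (median 0.03) and 3 at an unadjusted p under 0.05. These were Sgk1 at 0.49 ± 0.11, with no overlap, and Tsc22d3 at 0.55 ± 0.22 on the higher side, and Zbtb16 at -0.40 ± 0.15 on the lower; the 3 are named because they make up that count. The part of these genes in the Per1 difference was not tested. Of the members, Per1 and Nr1d1 lie on chromosome 11, as do the core partner Hlf and Sphk1. Their distance from Sphk1 was not measured here, and any part of the shared chromosome was not tested.

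Dbp had 10.61, 10.30 and 10.55 in hTNF and 10.14, 9.91 and 10.11 in the arrays labelled Sphk1 null. The groups lay 0.16 apart. The difference of -0.43 ± 0.11 (95% interval -0.68 to -0.19) had an unadjusted p of 0.00328, rank 143, and an adjusted p of 0.54. The remaining members had differences between -0.19 and 0.19 with adjusted p of 0.663 or more: Arntl -0.17 ± 0.14, Clock -0.17 ± 0.12, Nr1d1 -0.06 ± 0.13 and Tef -0.19 ± 0.09 were on the lower side, and Per2, at 0.19 ± 0.20, was on the higher side with a sign that turned in 3 alternatives. Per2 had 8.03, 7.18 and 7.5 in the arrays labelled Sphk1 null, around its hTNF values. Skeletal muscle genes lay on the lower side in 14 of 15 without a call (median -0.36), against 6779 of 12362 genes on that side. The muscle gene on the higher side was at 1.41. Of the 15, 10 had an unadjusted limma p under 0.05, against 6.27% of all genes. The part of muscle genes in these differences was not tested. The 7 tested core partners ranged from -0.12 to 0.80 without a call. At the top was Nfil3, with 8.54, 8.22 and 8.51 in hTNF and 9.66, 8.96 and 9.05 in the arrays labelled Sphk1 null (0.80 ± 0.18, adjusted p = 0.453).

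Set against wild type, the arrays labelled Sphk1 null gave 7 called clock genes of 10, 1 as higher and 6 as lower. Over all genes 43% were called, 23.8% as lower and 19.1% as higher. In 8 members these groups did not overlap, against 60.8% of all genes, and the median difference of the members was -0.40, against -0.02. The actin 3′ minus 5′ signal was 0.53, 0.74 and 0.67 on these arrays and 0.37 and 0.45 in wild type. That of Gapdh was 0.26, 0.32 and 0.35 on these arrays and 0.12 and 0.25 in wild type. This comparison shares its 2 wild-type arrays with the one above, so the values stand side by side and neither supports the other. The count was 4 without wild-type replicate 1, 3 without wild-type replicate 2 and 4 without Sphk1-null replicate 3, and between 3 and 7 over the 8 arrays left out in turn.

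Tef had 10.87, 10.74 and 10.73 in the arrays labelled Sphk1 null and fell by 1.02 ± 0.10 against wild type (2.03-fold lower, adjusted p = 6.95e-05). Per3 had 8.47, 8.49 and 8.44 and fell by 0.97 ± 0.12 (1.96-fold lower, adjusted p = 0.000253). Nr1d1 had 10.46, 10.50 and 10.30 and fell by 0.73 ± 0.15 (adjusted p = 0.00338). These 3 passed in all 18 alternatives. Arntl had 9.05, 8.85 and 8.58 and fell by 0.64 ± 0.15 (adjusted p = 0.00823; 0.066 without wild-type replicate 2). Dbp fell by 0.39 ± 0.12 (adjusted p = 0.0312) and Nr1d2, with 11.45, 10.95 and 11.23, by 0.40 ± 0.14 (adjusted p = 0.0447). Dbp passed in 12 of 18 alternatives and was lost without wild-type replicate 1 or 2 (adjusted p = 0.137 and 0.103), Sphk1-null replicate 2 or 3 (0.0802 and 0.0591) or the 3 mixed-signal arrays (0.0596), and with array weights (0.055). Nr1d2 passed in 7 of 18, and was lost without any 1 array other than Sphk1-null replicate 1 (adjusted p from 0.0561 to 0.204), with the replicate number as a block (0.0725), with no filter (0.067), with no intensity trend (0.0628) and on only the 2 groups compared (0.0781).

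Per1 was the member that rose, by 0.94 ± 0.30 (1.91-fold higher, adjusted p = 0.0354), in 10 of 18 alternatives. It was lost without wild-type replicate 1 (adjusted p = 0.107), wild-type replicate 2 (0.149), Sphk1-null replicate 1 (0.62 log2, adjusted p = 0.0576) or Sphk1-null replicate 3 (0.0897). Without the 3 mixed-signal arrays it was 0.55 (adjusted p = 0.207), and without the 2 arrays with the highest skin marker level 0.62 (0.0691). Clock, with 9.31, 9 and 8.96 (-0.25 ± 0.13, adjusted p = 0.17), Per2 (-0.09 ± 0.22, adjusted p = 0.784) and Bhlhe40 (0.43 ± 0.16, adjusted p = 0.0616) did not pass; Bhlhe40 had 12.56, 12.71 and 12.37.

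Among the core partners Nfil3 rose by 0.66 ± 0.20 (adjusted p = 0.0278), while Cry1 fell by 0.71 (adjusted p = 0.0106), Cry2 by 0.95 (0.00322) and Hlf by 1.06 (0.00742). The Nfil3 call was lost without wild-type replicate 1 (adjusted p = 0.1), wild-type replicate 2 (0.12) or the 3 mixed-signal arrays (0.0867). Without wild-type replicate 2 Cry1 had an adjusted p of 0.0868, and without wild-type replicate 1 Hlf had 0.0839. Cry1 and the modifier Ppargc1a were below the brightness filter on all 3 arrays labelled Sphk1 null. Gsk3b is given below by its brightest probe set. A dimmer Gsk3b set had a mean of 7.5 in wild type and 8.11 in the arrays labelled Sphk1 null, and another had 7.47 and 7.01. The modifiers Ppargc1a (-1.83, adjusted p = 6.22e-05), Cipc (-0.82, adjusted p = 0.00533) and Gsk3b (-0.56, adjusted p = 0.00741; 0.0527 without wild-type replicate 2) fell, and so did the outputs Usp2 (-1.28, adjusted p = 0.0012) and Nampt, the NAD salvage enzyme (-0.60, adjusted p = 0.0185). The call of Nampt was lost without wild-type replicate 1 (adjusted p = 0.119), wild-type replicate 2 (0.0519) or Sphk1-null replicate 3 (0.0631), and its 2 dimmer probe sets were not called. The output Wee1 was on the higher side by its brightest set without a call (0.63 ± 0.26, adjusted p = 0.0814). A dimmer Wee1 set rose by 0.99 ± 0.20 (adjusted p = 0.00386).

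Several members have more than 1 tested probe set, and they did not always move together. For Per3, 3 of the 4 tested sets fell in hTNF, by 0.82, 0.55 (adjusted p = 0.00467) and 0.64 (adjusted p = 0.00632). The fourth had 8.02 and 7.86 in wild type, 8.79, 8.43 and 8.46 in hTNF and 8.31, 7.41 and 7.84 in the arrays labelled Sphk1 null. It was higher in hTNF than in wild type by 0.62 ± 0.23 (adjusted p = 0.0714), opposite in sign to the other 3. For Tef the second set, at a mean of 7.20, differed by -0.13 (adjusted p = 0.635), and for Arntl the second, at 6.71, by 0.25 ± 0.21 (adjusted p = 0.429).

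For Clock the sets at means of 8.93 and 8.34 were called against wild type in the arrays labelled Sphk1 null (-0.37 ± 0.13, adjusted p = 0.0432, and -0.51 ± 0.18, adjusted p = 0.0461), while the brightest was not. Both Dbp sets fell in that comparison, the second by 0.53 ± 0.17 (adjusted p = 0.0338), and for Nr1d2 the second set, at 8.26, was not called. Counting a member by any tested probe set gave 4, 0 and 8 called members in the 3 comparisons in the order described, and by the mean of its tested probe sets 3, 0 and 6. The shares of all genes called by these rules were not computed, so the counts have no background beside them. Counting by any set also gives a member with several sets more than 1 chance of a call. The 5 untested sets, 2 of Per3 and 1 each of Clock, Per2 and Tef, had values between 5.59 and 7.03.

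**Figure D4:**
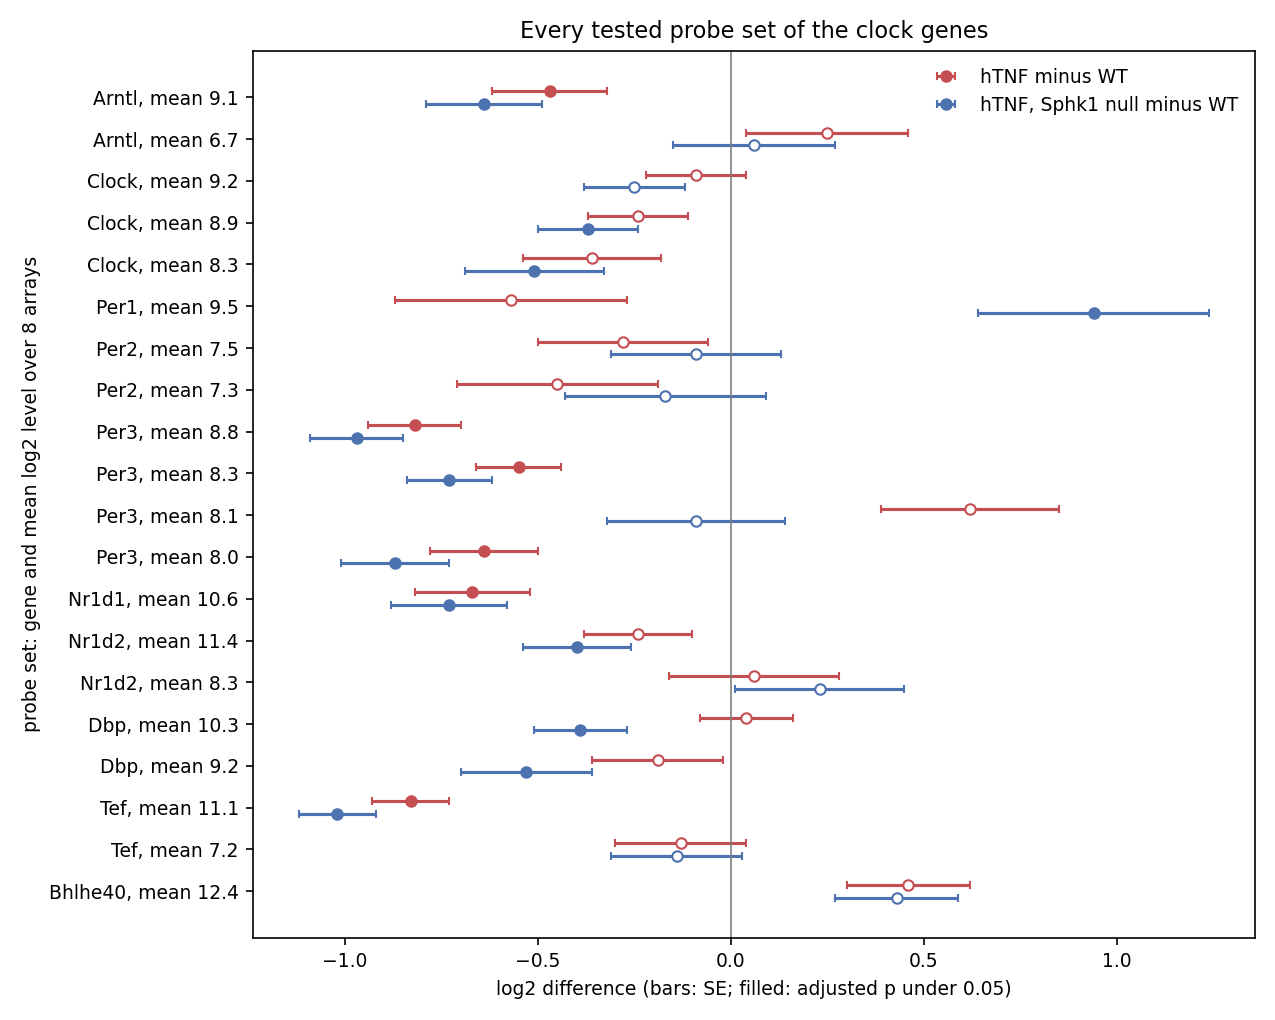
Log2 difference from wild type of each of the 20 tested clock probe sets, labelled by gene and mean level, for hTNF and for the arrays labelled Sphk1 null; bars are SE and filled symbols have an adjusted p under 0.05. One Per3 set (mean 8.1) lies on the other side of 0 in hTNF, at 0.62, from the other 3.

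The genes with profiles closest to the 4 members that fell in hTNF were sought among 12361 genes by the root mean square difference over 8 arrays after centring each gene. The nearest to Tef were Pdha1 (0.049), Prkar2a (0.057) and Atp5c1 (0.057), and to Per3 they were Npr2 (0.058), Miga1 (0.07) and Gatd3a (0.072). Arntl was nearest to Secisbp2l (0.055), Vezf1 (0.058) and Cops3 (0.063), and Nr1d1 to Daam2 (0.071), Zfp784 (0.072) and Thnsl2 (0.081). None of these 12 is a clock gene of the lists used here.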

How the data were processed

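The deposited table gives a log2 value for each probe set and array, as the authors made it. Per the labels' protocols, total RNA was isolated with TRIzol and column kits and amplified to biotin-labelled cRNA. Affymetrix Expression Console, RMA and MAS5 are named per the submitters' processing notes; the step that made the values, and its version, are not given in the sources used here. Array medians lay between 6.84 and 6.89, so differences in total RNA between groups are not visible, and the number of arrays limits the precision.

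Gene names came from the platform annotation (34945 with 1 gene, 932 with several, 9160 with none listed, 64 controls), with symbols updated in a GRCm38.p6 gene table, which matched 34741. Coordinates are those of the RefSeq promoter table only.

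Controls were dropped, and a probe set was tested where it exceeded the table median (6.87) on at least 2 of 8 arrays. In limma 3.58.1 (R 4.3.3), 1 linear model held a mean for each of the 3 groups, with eBayes shrinkage along an intensity trend and 5 residual degrees of freedom; the fit was tested on simulated data. Alternatives were another or no filter, an offset of 32, quantile normalization, no trend, array weights, only the 2 groups compared, a replicate block and each array left out. Another 2, which leave out 3 mixed-signal arrays (Xist and Y-linked signal together) or 2 with the highest skin marker level, were added after the data were seen.

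The members, the gene lists and the tests were chosen with earlier results of these data known. The named genes are all members, the core partners reported here, up to 4 called modifiers and outputs each, and Sphk1. The 3 nearest profiles of each member called in hTNF against wild type were also named. Thra was added after its values were seen, since it overlaps Nr1d1, and so were the other tested genes that overlap a member. Sgk1, Tsc22d3 and Zbtb16 were added likewise for a count, Lep, Pck1 and Marco for the filter, and Csnk1e and Wee1 for a second probe set. Nampt, called only against wild type in the arrays labelled Sphk1 null, was also added then, as were Eif2s3y and Kdm5d for the Y-linked signal.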

Additional observations from a re-analysis of the deposited data

How the results depend on the processing

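Of 540 values of clock genes under alternatives, 481 kept their direction and side of the threshold, 34 lost the threshold, 11 gained it and 14 changed sign, all of them uncalled. In the whole table, leaving out 1 array gave 4695 to 9313 called probe sets for hTNF against wild type, 0 to 3 for the arrays labelled Sphk1 null against hTNF and 6314 to 10482 for those against wild type. The second count, 2, became 1 with the stricter filter, 6 after quantile normalization, 1 with array weights, and 0 without the 3 mixed-signal arrays or the 2 with the highest skin marker level; at an unadjusted p under 0.05 limma gave 1835. Leaving out 1 array gave 2 to 5 called clock genes in the first comparison, 0 to 1 in the second and 3 to 7 in the third. Sign changes were, for hTNF against wild type, Dbp at -0.04 without the 3 arrays and -0.02 without the 2, and -0.02 to 0.13 with 1 array left out. Between the transgenic groups they were Bhlhe40 at 0.05 with array weights, 0.11 without the 3 and 0.11 without the 2 arrays (-0.19 to 0.11 with 1 left out), Per2 at -0.01 without the 3 and -0.01 without the 2 (-0.04 to 0.38 with 1 left out), and Nr1d1 at -0.15 to 0.01 with 1 left out. Against wild type, Npas2 was at -0.01 without the 2 arrays and Per2 at -0.32 to 0.10 with 1 left out. The cause was not tested.

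Deviations of same-numbered arrays correlated at -0.17 to 0.27 and those of different numbers at -0.49 to 0.37. Of 8 arrays, 5 correlated best with an array of their own number. These values do not settle whether the replicate numbers mark pairs. With a replicate block 6515, 2 and 7770 probe sets and 3, 0 and 6 clock genes were called. With 2 to 3 arrays a group, differences near 0.4 log2 lie at the edge of the threshold, and dim probe sets near the table median carry little signal.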
